A study of Mus musculus with 6 samples.

Results

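Cytosolic heat-shock proteins, their co-chaperones and the chaperonin CCT were followed as a group of 42 genes among the 54532 genes of a read-count table from MLE12 cells. The members were chosen by gene name, with earlier results of these data known, and fall into 8 classes. These are HSP90 (2 genes), HSP70 and HSP110 (8 genes), small HSP (2 genes), DNAJ (8 genes), HSP70 co-chaperones (5 genes), HSP90 co-chaperones (7 genes), heat shock factors (2 genes) and CCT subunits (8 genes). All 42 were in the table and all passed the filter on low counts. MLE12 is a mouse lung epithelial line immortalized with the SV40 large T antigen under the surfactant protein C promoter, so every sample shares 1 origin. RNA-seq was done on 6 libraries. The Ctrl shRNA group (3 libraries) received a lentivirus with an empty vector, and the Idh3α shRNA + Slc25a1 shRNA group (3 libraries, called knockdown here) received 1 lentivirus against each of the 2 genes. *Idh3α* encodes a subunit of the mitochondrial isocitrate dehydrogenase that uses citrate-derived isocitrate, and *Slc25a1* encodes the carrier that exports citrate from mitochondria. Each virus was used at a multiplicity of infection of 50, the medium was renewed after 16 h and culture went on for 80 h. The knockdown cells therefore took up 2 lentiviruses and the control cells 1, and the effects of virus number and of the knockdown cannot be told apart. Both groups grew in HITES medium with serum, which contains hydrocortisone, a glucocorticoid. The strain is given as C57BL/6J, which the paper states for its mice and not for the MLE12 line. Nothing in the labels says that replicates came from separate cultures, so the p-values measure the spread between these samples, which may be technical.

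Chaperones bind unfolded or partly folded proteins and keep them from aggregating until they reach their native form. HSP70 proteins take up short hydrophobic stretches with the help of DNAJ proteins, which deliver clients and stimulate ATP hydrolysis, and of exchange factors such as the BAG and HSP110 families. Clients such as kinases and steroid receptors pass on to HSP90 through co-chaperones, while the ring-shaped CCT complex folds actin, tubulin and other proteins. In heat or other proteotoxic stress, the transcription factor HSF1 binds heat shock elements and drives many of these genes, with *Hspa1a* and *Hspa1b* as the classical inducible members.

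The deposited counts summed to between 27273502 and 28535653 per library, and 1 library stood apart. Ctrl shRNA replicate 2 had 16681 genes with a count against 19902 to 23147 in the other 5 libraries, and its 100 most abundant genes held 27.2% of the counts against 12.6 to 12.9%. Mitochondrially encoded genes took 6.49% of its counts and 1.57 to 1.80% of those of the others. Results are therefore given with and without this library. Levels are given as CPM, the reads of a gene relative to its library size after TMM scaling. *Slc25a1* was at 103, 98.7 and 108 CPM in the control libraries and at 68.9, 69.6 and 63.0 CPM in the knockdown libraries, and *Idh3α* at 79.8, 137 and 93.0 CPM against 58.5, 57.9 and 55.5 CPM, so neither target overlapped between the groups. Of 7 lung epithelial markers 6 could be tested, and their summed level was 726 to 769 CPM in control and 650.2 to 706 CPM in knockdown libraries. *Nkx2-1*, the lung epithelial transcription factor, was at 324 to 343 CPM in control and 277 to 302 CPM in knockdown libraries, and *Sftpc*, encoding surfactant protein C, at 44.1, 97.3 and 50.9 against 35.9, 28.5 and 27.2 CPM. Neither overlapped between the groups. Over all libraries edgeR and DESeq2 called neither, edgeR without replicate 2 called *Sftpc* lower, and DESeq2 without replicate 2 and limma with sample quality weights called both lower. In 3 of the 7 markers (*Epcam*, *Nkx2-1* and *Sftpc*) all knockdown values lay below all control values, against 10.7% of all genes. *Cdh1* had them above, as did 14.7% of all genes, at 74.9, 68.4 and 71.4 against 83.8, 75.7 and 77.2 CPM. None of these fits called *Cdh1*. *Krt8* overlapped, with a log2 fold change of -0.01 over all libraries and -0.12 without replicate 2. *Krt18* had at most 0.527 CPM in any library. Fibroblast markers (3 of 4 tested) summed to 346 to 1233 CPM in control and 317 to 345 CPM in knockdown libraries. The top of the control range was replicate 2, through *Dcn*, whose log2 fold change was -1.04 over all libraries and -0.15 without it. *Pdgfra* went the other way at a low level, 2.68, 2.23 and 2.23 against 3.43, 3.72 and 3.91 CPM. Its log2 fold change was 0.63 over all libraries and 0.57 without replicate 2. Of these fits only limma with quality weights called *Pdgfra* higher (adjusted p = 0.0312). Leukocyte markers (1 of 4 tested) summed to 1.65 to 1.92 and 2.41 to 2.76 CPM with *Ptprc* and *Adgre1* at 0 in all libraries, and endothelial markers (1 of 3 tested) to 0 to 0.697 and 0.336 to 0.989 CPM. The part of these differences in the chaperone values was not tested.

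The sequences below show the heat shock elements found next to member genes, because this element is the site through which HSF1 is known to act. RefSeq promoters on GRCm38.p6, from 250 bases before to 50 after each start, were matched for 36 of the 42 members. They were not matched for *Hsp90aa1*, *Hsp90ab1*, *Hspa8*, *Dnajc2*, *Hsf1* and *Cct4*. The 3-unit element GAANNTTCNNGAA, searched on both strands, was found at 3 members. Capitals mark the element and each sequence runs 5′ to 3′ on the strand of its gene, with the first base of the RNA counted as 1.
Hsph1 (chr5:149636280-149636308, minus strand, element at bases 16 to 28): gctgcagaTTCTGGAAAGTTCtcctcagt
Chordc1 (chr9:18292260-18292288, plus strand, 3 overlapping copies): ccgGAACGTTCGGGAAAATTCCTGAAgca
Dnajb6 (chr5:29735844-29735872, plus strand, 46 to 34 bases before the nearer of 2 starts): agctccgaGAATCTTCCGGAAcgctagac
The shorter 2-unit form GAANNTTC, which lies within the 3-unit form and is its own reverse complement, was found at 11 of the 36 members. The 250 bases before the start of the inducible gene *Hspa1b* hold 1 copy, in capitals, whose nearer end lies 97 bases before the start.
Hspa1b (chr17:34959239-34959488, minus strand): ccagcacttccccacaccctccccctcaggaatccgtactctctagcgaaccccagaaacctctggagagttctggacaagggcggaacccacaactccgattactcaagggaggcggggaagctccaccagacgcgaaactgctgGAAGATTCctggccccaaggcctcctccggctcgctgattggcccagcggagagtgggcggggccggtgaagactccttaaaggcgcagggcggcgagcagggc
*Hspa1a* carried the same 8 letters at the same distance, and *Fkbp4* carried GAAAGTTC 151 to 144 bases before its start. Among all 27025 genes with a RefSeq promoter of this length, 0.662% held the 3-unit form and 9.04% the 2-unit form, against 8.33% and 30.6% of the members matched. Such matches describe letters only and do not show binding.

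No member passed edgeR's test over all 6 libraries, and the number called depended on the tool and on single libraries. In edgeR's quasi-likelihood test the members had adjusted p (Benjamini-Hochberg) from 0.110 to 0.991, and 0 of 42 were under 0.05, where 10 of the 15307 genes tested (0.0653%) were. At an unadjusted p under 0.05, 10 members (23.8%) were higher and 0 were lower in the knockdown group, against 7.47% and 6.65% of all genes. The 10 were *Hsph1*, *Hspb8*, *Bag2*, *Bag3*, *Bag5*, *Stip1*, *Fkbp4*, *Fkbp5*, *Hsf1* and *Cct6a*. This count moved with single libraries, and so did the share of all genes. It was 6 higher and 2 lower without Ctrl shRNA replicate 1 (10.2% and 13.8% of all genes). Without Ctrl shRNA replicate 3 it was 8 higher and 0 lower (725 and 1272 of 15686 genes). It was 4, 5 and 5 higher without knockdown replicates 1, 2 and 3 (3.89%, 3.83% and 4.27% of all genes). It was 4 with library size only (3.25% of all genes) and 5 with the replicate number as a block (4.49% of all genes), where *Hspb8*, *Stip1*, *Fkbp4*, *Fkbp5* and *Cct6a* were no longer under 0.05. By DESeq2, *Hsph1* alone was called higher (1.73% of all genes) and 0 members were called lower (1.25% of all genes). In 12 members (28.6%) all 3 knockdown values lay above all 3 control values, and in 2 members (4.76%) they lay below, against 14.7% and 10.7% of all genes. The 12 were the 10 above with *Hsp90ab1* and *Dnajc7*, and the 2 were *Dnajb4* and *Bag1*. An exact permutation test of 3 libraries against 3 cannot give a two-sided p under 0.1. In bulk RNA a lower value can come from fewer cells of a type or from less RNA per cell, which cannot be told apart.

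**Figure D1:**
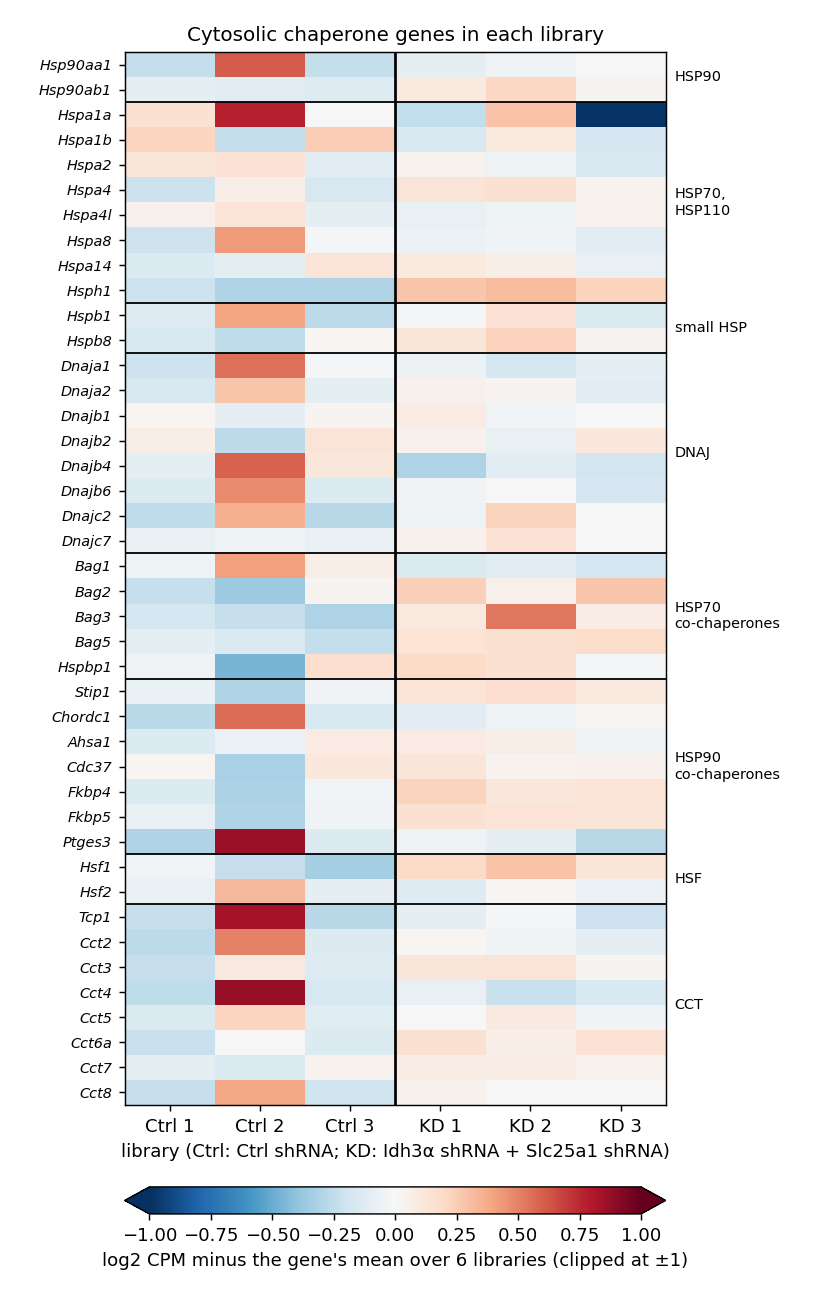
Each row is 1 of the 42 member genes and each column 1 library, with color giving log2 CPM minus the mean of the gene over the 6 libraries. The Ctrl 2 column holds strong positive values in some CCT, DNAJ and HSP90 genes, but not in *Hsp90ab1*, *Dnajb1*, *Dnajb2*, *Dnajc7* or *Cct7*. *Hsph1*, *Bag3*, *Bag5* and *Hsf1* are above their mean in all 3 knockdown columns.

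The level in Ctrl shRNA replicate 2 decided many of the signs. In 12 of the 42 members (28.6%) this library was at least 1.5-fold above the mean of Ctrl shRNA replicates 1 and 3, against 22.8% of all genes, and in 0 members was it 1.5-fold or more below, against 1990 of the 15307 genes tested. The median log2 fold change of the members was 0.03 over all libraries, with 24 positive and 18 negative, and 0.13 without replicate 2, with 32 positive and 10 negative. For all genes tested it was -0.01 over all libraries and -0.02 without replicate 2, with 48.7% and 47.3% positive. Leaving out Ctrl shRNA replicate 1 or 3 instead leaves replicate 2 as 1 of 2 controls. The median of the members was then 0.0004 and -0.0002, with 21 positive and 21 negative each time. For all genes tested it was 0.0082 without replicate 1 and -0.0111 without replicate 3. Leaving replicate 2 out turned 11 members from negative to positive (*Hsp90aa1*, *Hspa8*, *Hspb1*, *Dnaja2*, *Dnajb6*, *Chordc1*, *Ptges3*, *Hsf2*, *Tcp1*, *Cct2* and *Cct4*) and 3 from positive to negative (*Dnajb1*, *Dnajb2* and *Cdc37*). Of the other 28 members, 21 were positive and 7 were negative both times. The share of all genes that changed sign was not computed.

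Without replicate 2, edgeR called 1 member higher, *Hsph1*, and 0 lower, against 1.11% and 0.675% of all genes. At an unadjusted p under 0.05 these numbers were 15 and 2, against 9.54% and 10.3% of all genes. DESeq2 without that library called 10 members higher (23.8%), against 3.46% of all genes, and 0 lower, against 2.44%. The 10 were *Hspa4*, *Hsph1*, *Dnajc2*, *Bag3*, *Bag5*, *Fkbp4*, *Hsf1*, *Cct3*, *Cct6a* and *Cct8*. Limma with sample quality weights, which keeps all libraries and gives less weight to variable ones, called 12 members higher (8.67% of all genes) and 2 lower (6.34% of all genes). Its lower members were *Hspa1b* and *Bag1*. In 21 members (50%) all 3 knockdown values lay above Ctrl shRNA replicates 1 and 3, and in 3 members (7.14%) below them, against 20.4% and 17.5% of all genes. The plot of fold changes shows both sets of estimates.

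**Figure D2:**
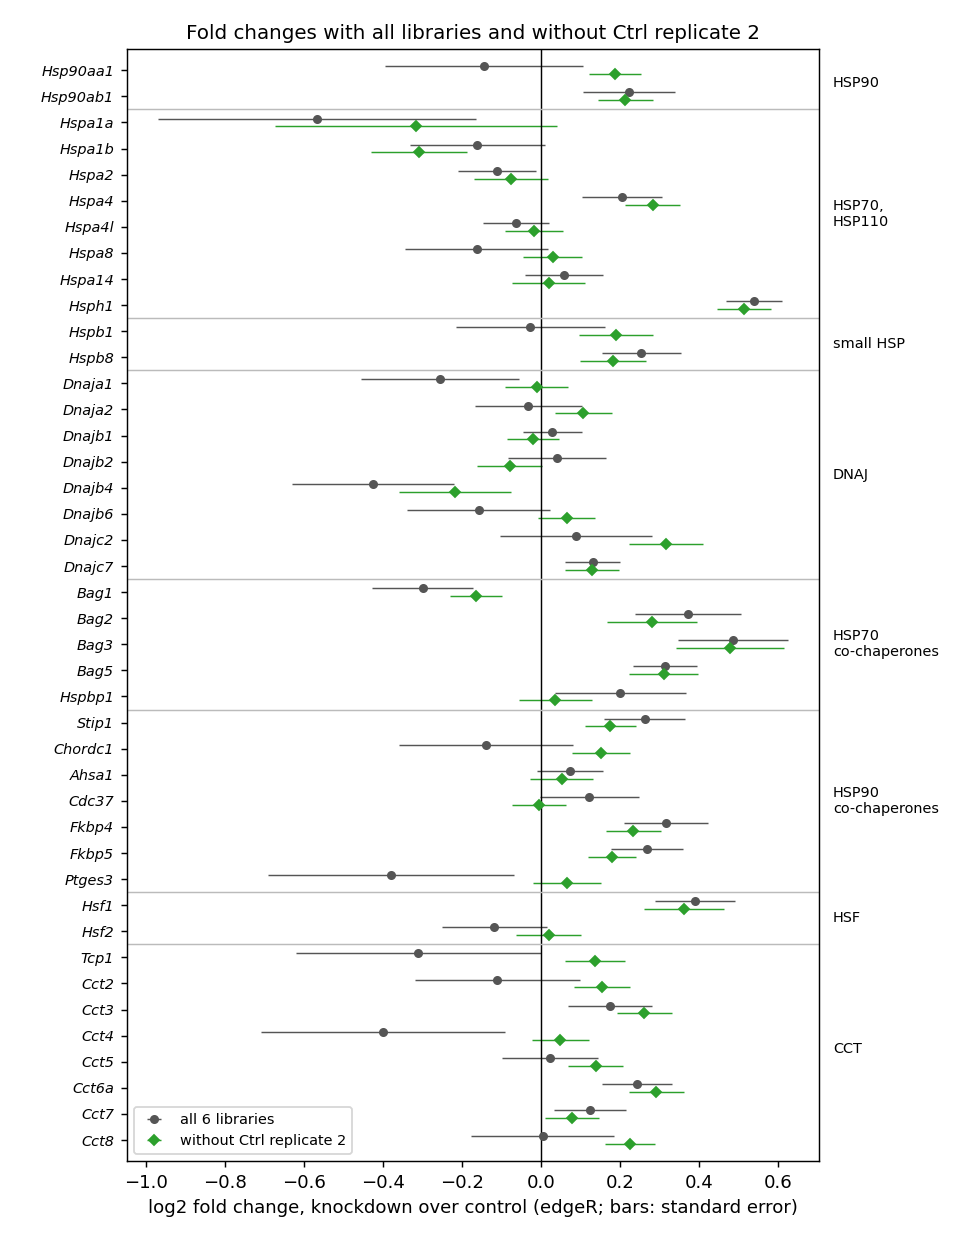
Points give the log2 fold change of knockdown over control from edgeR for each member by class, gray over all 6 libraries and green without Ctrl shRNA replicate 2, and bars give the standard error. *Hsph1* stays near 0.5 in both, while *Tcp1*, *Cct4* and *Ptges3* move from below to above 0.

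HSP90 was represented by *Hsp90ab1*, the constitutive isoform, and *Hsp90aa1*, the more inducible one. *Hsp90ab1* (chromosome 17 of mm10, 45567775 to 45573271) was at 2089, 2064 and 2031 CPM in the control libraries and at 2383, 2563 and 2268 CPM in the knockdown libraries. All knockdown values lay above all control values, with a log2 fold change of 0.22 (SE 0.12, adjusted p = 0.387) over all libraries and 0.21 (SE 0.07, adjusted p = 0.159) without replicate 2. *Hsp90aa1* was at 803, 1448 and 805 CPM against 887, 928 and 949.7 CPM. The high value of replicate 2 set its sign, which went from -0.14 (SE 0.25) to 0.19 (SE 0.07, adjusted p = 0.173) on the log2 scale when that library was left out. Per length, in the deposited FPKM, *Hsp90ab1* exceeded *Hsp90aa1* by 3.13 to 3.62 times in 5 libraries and by 1.87 times in Ctrl shRNA replicate 2.

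Among the 8 HSP70 and HSP110 genes the values of *Hsph1* parted the groups most clearly, and those of the inducible *Hspa1a* and *Hspa1b* did not lie higher in the knockdown group. *Hsph1* (ENSMUSG00000029657, chromosome 5, 149614287 to 149636376, minus strand) encodes HSP110, an exchange factor for HSP70. It was at 122, 114 and 115 CPM in the control libraries (117 ± 4.22, SD, n = 3) and at 170.2, 175 and 164 CPM in the knockdown libraries (169.8 ± 5.62, SD, n = 3). The groups were far apart beside their spread, and Ctrl shRNA replicate 2 lay with the other control libraries at 0.967 times their mean. The log2 fold change was 0.54 (SE 0.07), or 45.3% higher, with an adjusted p of 0.110 over all libraries and of 0.0142 without replicate 2 by edgeR (log2 fold change 0.51). By DESeq2 the adjusted p was 1.99e-08 over all libraries. Over the 17 other settings the log2 fold change stayed between 0.51 and 0.71, and the adjusted p ran from 3.63e-09 to 0.637.

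*Hspa8*, the constitutive cytosolic HSP70, was at 1087, 1687 and 1243 CPM against 1204, 1227 and 1159 CPM. Its knockdown values lay between the control values of replicates 1 and 3, with a log2 fold change of -0.16 (SE 0.18) over all libraries and 0.03 (SE 0.07) without replicate 2. *Hspa1b* was at 12.7, 9.26 and 12.97 CPM against 9.85, 11.7 and 9.71 CPM. The groups overlapped through replicate 2, its lowest value, and the log2 fold change was -0.16 (SE 0.17, adjusted p = 0.641) and, without that library, -0.31 (SE 0.12, adjusted p = 0.213). *Hspa1a* was near the lower end of detection, at 1.78, 2.73 and 1.604 CPM against 1.34, 1.94 and 0.809 CPM, with a log2 fold change of -0.57 (SE 0.40) over all libraries and -0.32 (SE 0.36, adjusted p = 0.660) without replicate 2. It was -0.91 without knockdown replicate 2 and -0.30 without knockdown replicate 3. DESeq2 gave this gene no adjusted p. The neighboring genes *Hspa1a* and *Hspa1b* (chromosome 17, 34969190 to 34972156 and 34956436 to 34959238) have near-identical coding sequence. Of the 50-base windows of the *Hspa1a* transcript, 58.8% also occur in *Hspa1b*, and the counting of reads that match both is not given in the sources used here, so the split between them is uncertain. Per length, *Hspa8* exceeded *Hspa1b* by 55.9 to 119 times in FPKM. The other members of the class, *Hspa2*, *Hspa4*, *Hspa4l* and *Hspa14*, had log2 fold changes between -0.11 and 0.20, and the largest of these was that of *Hspa4*, an HSP110 relative, at 0.20 (SE 0.10, adjusted p = 0.375) and 0.28 (SE 0.07, adjusted p = 0.0890) without replicate 2.

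The small heat-shock proteins hold unfolded proteins without using ATP. *Hspb8*, the partner of BAG3, was at 88.8, 82.5 and 100.02 CPM against 107, 116 and 100.6 CPM. These groups just failed to overlap, with a log2 fold change of 0.25 (SE 0.10, adjusted p = 0.352) and 0.18 (SE 0.08, adjusted p = 0.270) without replicate 2. *Hspb1*, encoding HSP25 in the mouse, was at 211, 304 and 192 CPM against 228, 255 and 210.0 CPM. Its groups overlapped, and its log2 fold change of -0.03 (SE 0.19) became 0.19 (SE 0.09, adjusted p = 0.302) without replicate 2.

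The 8 DNAJ genes, which encode HSP40 partners of HSP70, had a median log2 fold change of -0.00 over all libraries and 0.03 without replicate 2, with 4 positive and 4 negative each time. *Dnajb1*, a major inducible member, was between 109 and 119 CPM in control and between 114 and 123 CPM in knockdown libraries, a log2 fold change of 0.03 (SE 0.07, adjusted p = 0.862). *Dnaja2*, the class member with the highest FPKM, was at 228, 309 and 239 CPM against 263, 259 and 237 CPM. The groups of both genes overlapped. *Dnajc7*, a co-chaperone that binds HSP70 and HSP90, was at 107, 109 and 107 CPM against 116, 125 and 113 CPM, a small difference in groups with little spread (log2 fold change 0.13, SE 0.07, adjusted p = 0.388). *Dnajc7* overlaps *Cnp* and *Nkiras2* on the opposite strand, and the use of strand in counting is not given in the sources used here. *Dnajb4* was at 6.72, 10.8 and 7.81 CPM against 5.81, 6.69 and 6.34 CPM. It was 1 of 2 members with all knockdown values below all control values, at a log2 fold change of -0.42 (SE 0.20, adjusted p = 0.372) and -0.22 (SE 0.14, adjusted p = 0.422) without replicate 2. *Dnajc2*, a ribosome-associated member, had a log2 fold change of 0.09 (SE 0.19) that became 0.32 (SE 0.09, adjusted p = 0.134) without replicate 2.

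The HSP70 co-chaperones had the highest class median, 0.31 over all libraries and 0.28 without replicate 2, and their BAG members did not share 1 direction. *Bag3*, a stress-inducible factor that links HSP70 to HSPB8 and to autophagy, was at 62.9, 60.6 and 57.4 CPM against 76.0, 102 and 74.7 CPM. All knockdown values lay above the controls, and knockdown replicate 2 was the highest, and the log2 fold change was 0.49 (SE 0.14, adjusted p = 0.312) over all libraries and 0.32 without that library. *Bag5*, an exchange factor, was at 23.3, 22.5 and 21.02 CPM against 27.3, 27.7 and 28.1 CPM. Its libraries spread little within each group, and the log2 fold change was 0.31 both times (SE 0.08, adjusted p = 0.286, and SE 0.09, adjusted p = 0.121 without replicate 2). *Bag2*, an inhibitor of the ubiquitin ligase CHIP, was at 16.2, 14.8 and 19.3 CPM against 22.5, 19.6 and 23.1 CPM, which just parted the groups (log2 fold change 0.37, SE 0.13, adjusted p = 0.344). *Bag1*, which couples HSP70 to the proteasome, went the other way, with 138, 188 and 149 CPM against 128, 131 and 126 CPM. All of its knockdown values lay below the controls, at a log2 fold change of -0.30 (SE 0.13, adjusted p = 0.356) and -0.16 (SE 0.07, adjusted p = 0.216) without replicate 2. For *Bag1* the adjusted p over the other settings ran from 0.0401, with quality weights, to 0.850. *Hspbp1*, another exchange factor, had a log2 fold change of 0.20 (SE 0.17) that became 0.04 (SE 0.09) without replicate 2.

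Of the 7 HSP90 co-chaperones, 3 had all knockdown values above the controls, where 14.7% of all genes did, and 0 had them all below, where 10.7% did. *Stip1*, encoding the HOP adaptor between HSP70 and HSP90, was at 373, 317 and 381 CPM against 429, 438 and 417 CPM (log2 fold change 0.26, SE 0.10, adjusted p = 0.352). *Fkbp4*, encoding FKBP52, an immunophilin of steroid receptor complexes, was at 422, 373 and 454 CPM against 541, 503 and 511 CPM (log2 fold change 0.32, SE 0.11, adjusted p = 0.339). *Fkbp5*, encoding the related FKBP51 and known as a glucocorticoid-induced gene, was at 109, 92.6 and 112 CPM against 127, 126 and 124 CPM (log2 fold change 0.27, SE 0.09, adjusted p = 0.339). In all 3 genes Ctrl shRNA replicate 2 was the lowest library, and without it the log2 fold changes were 0.18, 0.23 and 0.18 with adjusted p of 0.189, 0.135 and 0.167 by edgeR. Of 8 glucocorticoid-responsive or receptor genes, 0 were called by edgeR with or without that library, and 0 were higher and 1, *Dusp1*, was lower at an unadjusted p under 0.05 over all libraries (12.5%, against 6.65% of all genes). Without replicate 2, 1 was higher (*Sgk1*, 12.5% against 9.54%) and 3 were lower (*Nr3c1*, *Tsc22d3* and *Dusp1*, 37.5% against 10.3%) at that unadjusted p. DESeq2 called 0 over all libraries. DESeq2 without replicate 2 and limma with quality weights each called *Dusp1* lower (12.5%, against 2.44% and 6.34% of all genes). The median log2 fold change of the 8 genes was 0.00 and, without replicate 2, -0.12. *Ptges3*, encoding the p23 co-chaperone, was at 204 to 228 CPM in Ctrl shRNA replicates 1 and 3, at 456 CPM in replicate 2, and at 207 to 241 CPM in the knockdown libraries. *Chordc1*, whose start carries 3 overlapping heat shock elements, had a log2 fold change of -0.14 (SE 0.22) and, without replicate 2, 0.15 (SE 0.07, adjusted p = 0.287). *Ahsa1*, the activator of the HSP90 ATPase, and *Cdc37*, the kinase adaptor, had log2 fold changes of 0.07 (SE 0.08) and 0.12 (SE 0.12).

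The heat shock factors differed from each other in pattern. *Hsf1* (chromosome 15, 76477422 to 76501913) was at 56.8, 49.5 and 46.1 CPM in the control libraries and at 66.1, 70.5 and 62.9 CPM in the knockdown libraries. Its groups did not overlap, with means of 50.8 ± 5.46 and 66.5 ± 3.81 CPM (SD, n = 3), and the log2 fold change was 0.39 (SE 0.10, adjusted p = 0.288) over all libraries and 0.36 (SE 0.10, adjusted p = 0.121) without replicate 2. Over the other settings the adjusted p of *Hsf1* ran from 0.0107 to 0.675. *Hsf2* overlapped between the groups, with a log2 fold change of -0.12 (SE 0.13) and 0.02 (SE 0.08). The activity of HSF1 depends on its trimerization and modification, which mRNA levels do not measure.

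**Figure D3:**
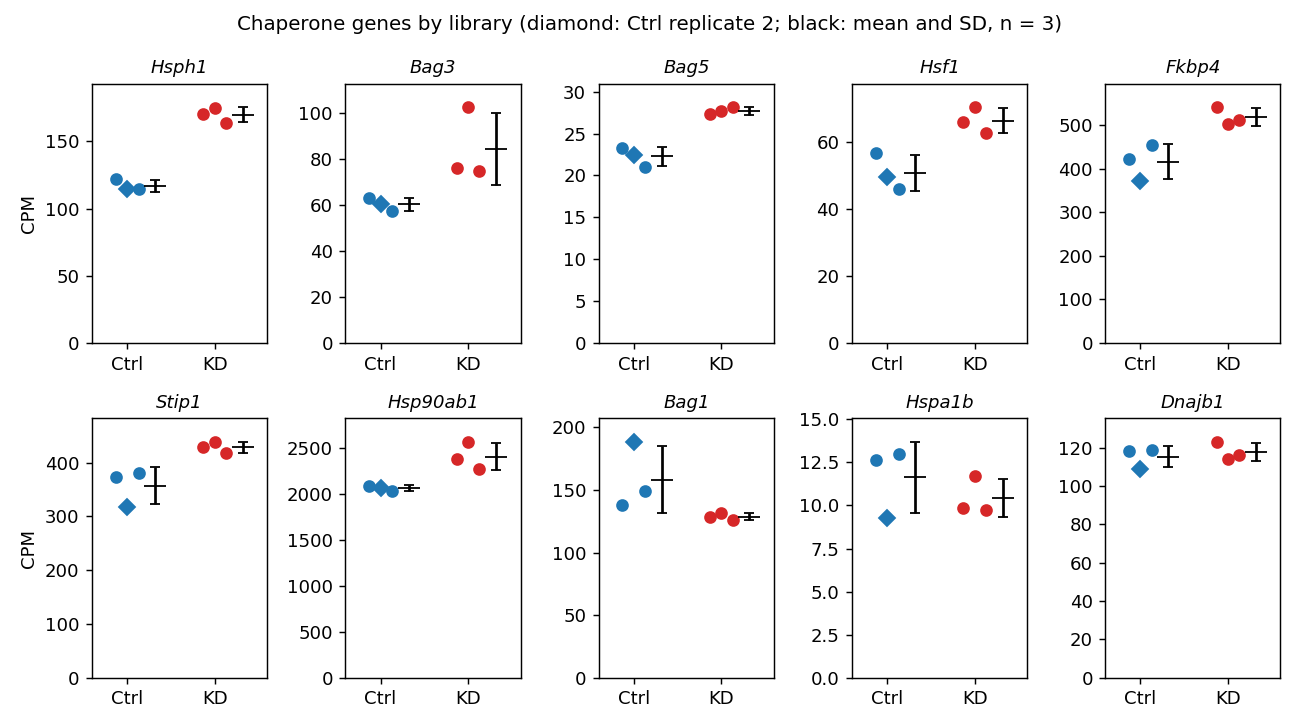
Each panel plots CPM from 0 for 1 gene, with Ctrl shRNA libraries in blue (replicate 2 as a diamond), knockdown libraries in red, and black bars for the mean ± SD (n = 3). In *Hsph1*, *Bag3*, *Bag5*, *Hsf1*, *Fkbp4*, *Stip1* and *Hsp90ab1* the red points lie above all blue points, in *Bag1* below, and in *Hspa1b* and *Dnajb1* they overlap.

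The 8 CCT subunit genes also depended on the control library that stood apart. Their summed level was 2276, 3347 and 2393 CPM in the control libraries and 2677, 2647 and 2563 CPM in the knockdown libraries. Knockdown libraries thus lay above replicates 1 and 3 and below replicate 2. The median log2 fold change was 0.01 with 5 positive genes over all libraries, and 0.15 with 8 positive genes without replicate 2. It was -0.07 without Ctrl shRNA replicate 1 and -0.08 without replicate 3. *Cct6a* (chromosome 5, 129786998 to 129846371) was the subunit gene whose groups did not overlap, at 233, 271 and 248 CPM against 303, 285 and 302 CPM. Its log2 fold change was 0.24 (SE 0.09, adjusted p = 0.346) and 0.29 (SE 0.07, adjusted p = 0.0818) without replicate 2, and over the other settings its adjusted p ran from 0.00166 to 0.675. *Psph*, which overlaps the *Cct6a* locus on the opposite strand, had a log2 fold change of -0.74. *Cct2*, the subunit gene with the highest FPKM, was at 316, 535 and 343 CPM against 383, 369.6 and 354 CPM, and *Cct4* was at 209, 457 and 223 CPM against 237, 214 and 224 CPM. Without replicate 2 their log2 fold changes moved from -0.11 (SE 0.21) to 0.15 (SE 0.07, adjusted p = 0.274) and from -0.40 (SE 0.31) to 0.05 (SE 0.07, adjusted p = 0.746). Replicate 2 was not raised in all subunits, since its ratio to the mean of replicates 1 and 3 ran from 0.925 in *Cct7* to 2.12 in *Tcp1* and *Cct4*, although the subunits form 1 complex. *Tcp1*, the first subunit, overlaps *Mrpl18* on the opposite strand.

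**Figure D4:**
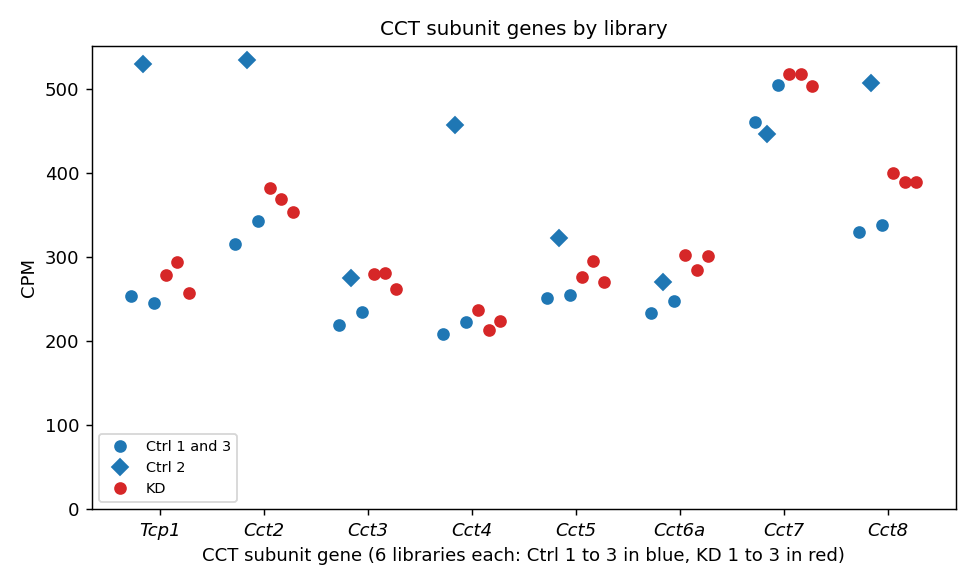
CPM from 0 is plotted for the 8 CCT subunit genes, with 6 libraries each, control in blue (replicate 2 as a diamond) and knockdown in red. The diamond lies well above the other points in *Tcp1*, *Cct2*, *Cct4* and *Cct8* and below them in *Cct7*.

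Levels per length spanned more than 3 orders of magnitude. In the deposited FPKM, the knockdown means ran from 0.462 in *Hspa1a* to 804 in *Hsp90ab1*, and the control means from 0.687 to 689 in the same genes. The highest members of the other classes by knockdown mean FPKM were *Hspa8* (279), *Hspb1* (225), *Stip1* (198), *Cct2* (145), *Bag1* (95.6), *Dnaja2* (85.3) and *Hsf1* (9.40). Within CCT, *Cct3* was lowest and *Cct2* highest in each of the 6 libraries, with *Cct2* at 3.27 to 4.85 times the FPKM of *Cct3*. Reads shared with related sequences bear on some of these levels, since at least 50% of the 50-base windows of *Hspa8*, *Hspa1a*, *Hspa1b*, *Hsp90aa1* and *Hspb1* recur in other annotated transcripts, while 25 members shared under 5%.

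**Figure D5:**
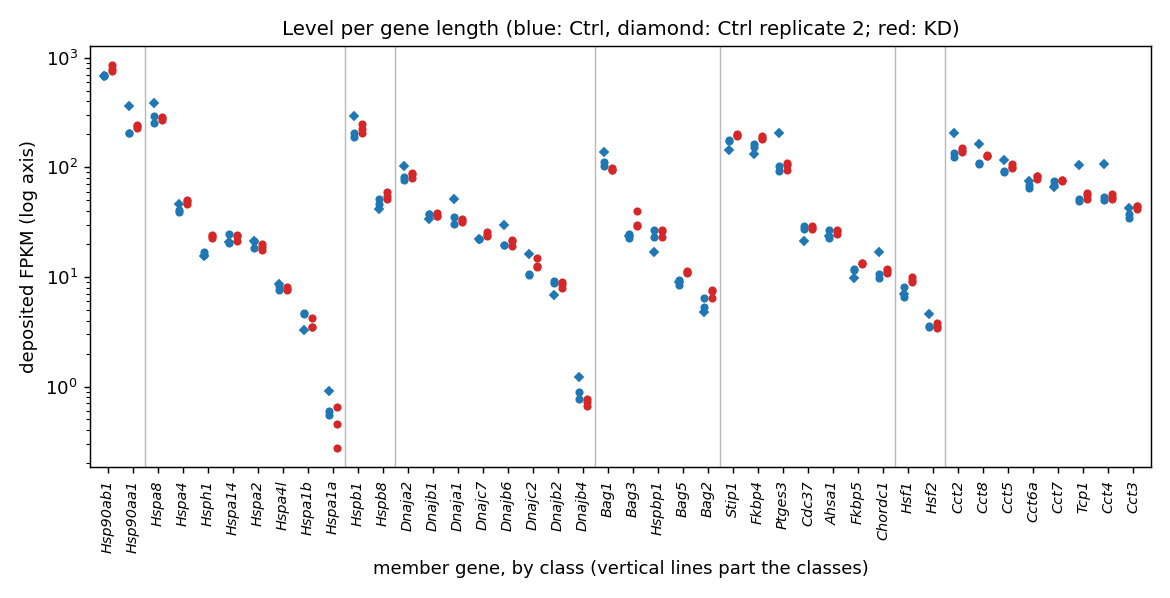
Deposited FPKM on a log axis for each member gene by class, with control libraries in blue (replicate 2 as a diamond) and knockdown libraries in red. *Hsp90ab1* is highest, and *Hspa1a* and *Dnajb4* are lowest, with levels under 2 FPKM in every library.

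The promoter element occurred in members whose groups parted and in members whose groups overlapped. The 2-unit form was present in 4 of the 10 members with a matched promoter whose knockdown values all lay above the controls (*Hsph1*, *Hspb8*, *Bag3* and *Fkbp4*). It was present in 7 of the 24 matched members with overlapping groups, *Hspa1a* and *Hspa1b* among them, and in 0 of the 2 with lower values. Of the 3 members with the 3-unit form, the groups parted in *Hsph1* and overlapped in *Chordc1* and *Dnajb6*. The numbers are small and were not tested.

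Another 27 genes of the same machinery were measured beside the members, and 0 were called in either direction by edgeR with or without replicate 2 or by DESeq2 over all libraries. DESeq2 without replicate 2 called 1 higher (*Ppid*, 3.70% against 3.46% of all genes) and 2 lower (*Vbp1* and *Pfdn5*, 7.41% against 2.44%). Limma with quality weights called 4 higher (*Ppid*, *Ppp5c*, *Unc45a* and *Dnajb5*, 14.8% against 8.67%) and 1 lower (*Pfdn6*, 3.70% against 6.34%). At an unadjusted p under 0.05 in edgeR over all libraries, 2 were higher (*Ppp5c*, an HSP90-bound phosphatase, and *Dnajb5*) and 4 were lower, which is 7.41% and 14.8% against 7.47% and 6.65% of all genes. The 9 prefoldin and CCT helper genes hold the subunits of prefoldin, which hands nascent actin and tubulin to CCT, and phosducin-like regulators of CCT. They had a median log2 fold change of -1.03 over all libraries and -0.35 without replicate 2. Their summed level ran from 508 to 1843 CPM in control and from 441 to 533 CPM in knockdown libraries, and 3 of the 4 lower genes, *Pfdn4*, *Pfdn5* and *Pfdn6*, were among them. The prefoldin and helper list and the CCT list thus had medians of opposite sign in the fit without replicate 2. The 7 other HSP90 co-chaperones had medians of 0.14 and 0.09, and the 8 other HSP70 partners 0.08 and 0.01. *Stub1*, encoding the ubiquitin ligase CHIP, was at 67.1, 73.8 and 79.3 CPM against 67.9, 53.5 and 59.4 CPM, which overlapped (log2 fold change -0.28, adjusted p = 0.352). *Hsbp1*, encoding a small HSF1-binding protein, was at 152, 872 and 196 CPM against 149, 134 and 147 CPM, and its log2 fold change moved from -1.50 to -0.29 (adjusted p = 0.183) without replicate 2.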

How the data were processed

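The 6 MLE12 libraries were grouped by their labels, 3 as Ctrl shRNA and 3 as Idh3α shRNA + Slc25a1 shRNA. Libraries were made with the NEBNext Ultra RNA kit and sequenced paired-end. The authors deposited unnormalized whole-number counts of reads per Ensembl gene. The authors also deposited FPKM, which equal the count divided by gene length and by a library size 0.716 to 1.08 times the total count. The submitters' processing notes name HISAT2 2.0.5, StringTie 1.3.3b, featureCounts 1.5.0-p3 and the build mm10, and the labels name a Trinity assembly. Strandedness and the handling of multi-mapped reads are not given in the sources used here. Both affect overlapping genes and near-identical copies. Gene coordinates were identical to GENCODE M21 for 41 of 42 members. Columns of per-sample values left unused numbered 0.

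Counts were filtered with filterByExpr, scaled by TMM and tested with edgeR 4.0.16 (quasi-likelihood F-test, no covariate) in R 4.3.3, with Benjamini-Hochberg adjustment over 15307 genes and a threshold of 0.05. FPKM served for levels per length. Alternatives were other size factors, count filters, a replicate block, each library left out, DESeq2 1.42.0, limma 3.58.1 with sample quality weights, and limma fitted to log2 FPKM with a pseudocount of 1 or 0.1 and FPKM of at least 0.5 in 3 samples. No list was given a test of its own. The members and lists were chosen with earlier results of these data known. Values in every library are given for members that passed the threshold in edgeR with or without Ctrl shRNA replicate 2, had groups that did not overlap, were highest by FPKM in their class or among the 3 largest or smallest fold changes, and for *Hspa1a*, *Hspa1b*, *Hsf1* and *Fkbp5*. A few others were added after their values were seen. The chi-square per degree of freedom between replicates, a check for repeated libraries, was 5.67 to 454, so every library counted as 1 replicate. Same-numbered libraries did not deviate together (r from -0.15 to 0.04). The fits were tested on simulated data.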

Additional observations from a re-analysis of the deposited data

How the results depend on the processing

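The members called higher numbered 0 with edgeR over all libraries, 1 with DESeq2, 12 with limma's quality weights, 10 with DESeq2 without Ctrl shRNA replicate 2, and 0 to 1 when single libraries were left out. The members called lower numbered 0, and 2 with quality weights. With library size only, the median of all genes moved from -0.01 to 0.16, and with it the median log2 fold change of the members to 0.23, of HSP90 to 0.25, of HSP70 and HSP110 to 0.10, of small HSP to 0.31, of DNAJ to 0.18, of the heat shock factors to 0.32, of CCT to 0.23, of HSP90 co-chaperones to 0.27 and of HSP70 co-chaperones to 0.49. For HSP70 and HSP110 the median was -0.0075 with quality weights, 0.0051 with DESeq2 on 5 libraries and -0.11 to 0.0006 with single libraries left out. For DNAJ these values were 0.031, 0.032 and -0.068 to 0.027. The sign turned in 5 of the genes given by library under the rule for named members, and also in *Hsp90aa1*, as reported above. *Hspa8* was at 0.060 with library size only, 0.034 with DESeq2 on 5 libraries and -0.29 to 0.029 with single libraries left out. *Hspb1* was at 0.20, 0.19 and -0.17 to 0.19, with quality weights 0.20. *Dnaja2* was at 0.18, 0.11 and -0.11 to 0.11, with quality weights 0.086. *Cct2* was at 0.13 with library size only, 0.12 with quality weights and 0.16 with DESeq2 on 5 libraries. *Cct4* was at 0.025 with quality weights and 0.054 with DESeq2 on 5 libraries. Left-out libraries gave -0.25 to 0.15 for *Cct2* and -0.59 to 0.049 for *Cct4*. The causes were not tested, beyond the shift of all genes.

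Over all genes edgeR called 9 higher and 1 lower, 175 and 106 without Ctrl shRNA replicate 2, and 0 and 0 with the replicate block. DESeq2 called 265 and 192, DESeq2 without replicate 2 543 and 383, and quality weights 1327 and 971. With the replicate block 0 members were called, and their median log2 fold change was 0.04. With the block 5 members were higher at an unadjusted p under 0.05 (4.49% of all genes), against 10 without it (7.47% of all genes), and the labels give only a shared number. The 21 members given by library under the rule for named members were recomputed in 17 other settings. Of these values 318 kept their sign and side of the threshold, 19 passed it and 20 turned. The other members, some of which also turned, are not in this tally. Total counts were similar between libraries, but Ctrl shRNA replicate 2 spread them over fewer genes, and the biological coefficient of variation was 0.263 over all libraries and 0.102 without replicate 2. *Hspa1a*, at a mean of 46.3 reads per library, had the least depth of the members.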

Other observations

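The spread between libraries differed by group. Over the members the median coefficient of variation of CPM was 14.3% among the 3 control libraries, 5.04% between Ctrl shRNA replicates 1 and 3, and 4.72% among the 3 knockdown libraries. *Cct4* had the highest value among the control libraries (47.1%) and *Hspa1a* among the knockdown libraries (41.6%), while *Dnajc7* (0.999%) and *Fkbp5* (1.17%) had the lowest. Counted against the other libraries of its own group, Ctrl shRNA replicate 2 was off by 1.5-fold or more in 12 of the 42 members (28.6%), against 35.8% of all genes, and each other library in 0 to 3 members, against 7.04 to 24.9% of all genes.

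Within HSP70 and HSP110 the proportion of *Hsph1* to *Hspa8* per length was similar across the knockdown libraries, at 0.0837, 0.0846 and 0.0838 in FPKM, and lay between 0.0401 and 0.0663 in the control libraries. The proportion of *Hspa1b* to *Hspa1a* ran from 3.59 to 12.7 with no separation of the groups.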
